A study of Mus musculus with 9 samples.

Results

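The 10 genes described here are the transforming growth factor β (TGF-β) ligands *Tgfb1*, *Tgfb2* and *Tgfb3*, the TGF-β receptors *Tgfbr1* and *Tgfbr2*, the activin β subunits *Inhba*, *Inhbb*, *Inhbc* and *Inhbe*, and the activin antagonist *Fst*. They were taken by name from the 43346 mouse genes listed for each liver. No value entered this rule, but earlier results of these data were known when the genes and the lists below were chosen. All 10 were found and all 10 were among the 15024 genes with enough counts to be tested. A further list of 55 genes of the same pathway, covering accessory receptors, latency proteins, antagonists, SMAD regulators and target genes, was described beside them, and 48 of these were tested.

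RNA-Seq of whole liver was available for 9 liver samples of male C57BL/6J mice (given as C57/BL6 in the sample records), 12 weeks old, in 3 groups of 3 biological replicates. The mice underwent 70% partial hepatectomy, the removal of most of the liver, after which the remnant regrows. The baseline group consisted of the resection specimens of vehicle-treated mice at 0 h, and the vehicle group of liver remnants of saline-treated mice at 40 h. The NSC group consisted of remnants at 40 h from mice given NSC-87877 (NSC), a small molecule inhibitor of the tyrosine phosphatases SHP2 and SHP1, at 7.5 mg/kg per intraperitoneal dose, or 15 mg/kg per day. The sample records place the first dose 12 h before surgery. Specimens resected from NSC-treated mice are not analysed here. Both groups of remnants were set against the same 3 baseline libraries, and an effect of NSC before surgery cannot be told apart from an effect after it. The reads counted on genes per library ran from 23997363 to 42887589. Each sample is called a liver and is named by group and replicate number. The numbers were not used to pair samples. Whether a specimen and a remnant with the same number came from 1 mouse, and so the number of mice, is not stated in the sources used here.

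TGF-β is secreted in a latent form, bound to proteins of the extracellular matrix, and once released it joins a type II receptor (*Tgfbr2*) with a type I receptor (*Tgfbr1*), which phosphorylates SMAD proteins that enter the nucleus. Activins are dimers of β subunits and signal through related receptors to the same SMAD proteins, and follistatin, the product of *Fst*, binds activins and keeps them from their receptors. Both ligand families are known to restrain hepatocyte growth in culture, TGF-β drives matrix production by hepatic stellate cells, and *Inhbc* and *Inhbe* are known for their expression in hepatocytes.

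Promoter windows of 300 bases (250 before and 50 after the start of transcription, RefSeq, GRCm38.p6) were given for 8 of the 10 genes; those of *Tgfb3* and *Fst* were not used here. The windows of the 4 genes that rose in NSC-treated mice are shown because they differ from each other in base composition and in letter matches to core elements. That of *Inhbe* is shown because its level in 1 NSC-treated liver stood far above the others. Capitals mark the TATA box (TATAAA), the GC box (GGGCGG, or CCGCCC on the other strand) and the core of the C/EBP-ATF response element (TGATGCAA, or TTGCATCA on the other strand).
Inhbb, chr1:119422199-119422498, minus strand: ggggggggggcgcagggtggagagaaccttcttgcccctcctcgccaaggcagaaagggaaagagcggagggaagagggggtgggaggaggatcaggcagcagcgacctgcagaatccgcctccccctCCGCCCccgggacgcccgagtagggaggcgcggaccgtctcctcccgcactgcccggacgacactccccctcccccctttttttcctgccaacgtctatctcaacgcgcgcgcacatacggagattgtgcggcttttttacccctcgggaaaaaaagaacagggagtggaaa
Tgfbr1, chr4:47352972-47353271, plus strand: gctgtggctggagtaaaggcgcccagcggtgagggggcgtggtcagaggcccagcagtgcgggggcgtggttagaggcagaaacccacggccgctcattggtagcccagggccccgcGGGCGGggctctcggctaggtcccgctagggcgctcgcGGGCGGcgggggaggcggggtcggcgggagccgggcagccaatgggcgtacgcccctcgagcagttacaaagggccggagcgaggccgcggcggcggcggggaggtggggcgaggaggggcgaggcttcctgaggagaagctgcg
Tgfb2, chr1:186705940-186706239, minus strand: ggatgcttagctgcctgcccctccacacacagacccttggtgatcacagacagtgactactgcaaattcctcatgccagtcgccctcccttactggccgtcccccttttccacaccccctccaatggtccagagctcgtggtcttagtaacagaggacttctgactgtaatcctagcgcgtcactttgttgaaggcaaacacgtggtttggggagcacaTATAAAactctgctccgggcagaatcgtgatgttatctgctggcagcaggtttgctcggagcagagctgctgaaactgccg
Inhba, chr13:16011601-16011900, plus strand: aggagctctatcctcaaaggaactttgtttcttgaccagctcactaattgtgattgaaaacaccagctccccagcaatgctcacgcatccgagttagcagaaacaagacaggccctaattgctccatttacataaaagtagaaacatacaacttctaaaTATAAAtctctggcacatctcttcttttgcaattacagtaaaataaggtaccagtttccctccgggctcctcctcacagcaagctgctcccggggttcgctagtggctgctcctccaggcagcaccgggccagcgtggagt
Inhbe, chr10:127351799-127352098, minus strand: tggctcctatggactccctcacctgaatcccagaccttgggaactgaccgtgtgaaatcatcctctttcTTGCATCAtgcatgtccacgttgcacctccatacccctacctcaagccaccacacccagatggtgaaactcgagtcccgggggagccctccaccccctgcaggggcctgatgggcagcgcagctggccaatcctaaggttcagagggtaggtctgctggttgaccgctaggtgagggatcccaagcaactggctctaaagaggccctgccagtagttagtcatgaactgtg

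The *Tgfbr1* and *Inhbb* windows shown were rich in G and C (74.7% and 64.3%), with 34 and 23 CpG dinucleotides, and held GC boxes but no TATA box. A second window of *Tgfbr1*, at another start site (chr4:47385966-47386265, plus strand), had 52.0% G and C, 3 CpG dinucleotides and neither element. The *Tgfb2* and *Inhba* windows had less G and C (54.3% and 47.7%), with 10 and 7 CpG dinucleotides. In *Tgfb2* the letters of the TATA box began 31 bases upstream of the start, and in *Inhba* they began farther off, 91 bases upstream. Over the 32851 promoter windows of the same length, searched on both strands, 35.66% held a GC box and 13.62% the letters of the TATA box. The C/EBP-ATF core, searched for after the sequences had been seen, was found in 0.89% of all windows and, among the 8 genes with a window, in that of *Inhbe*, 181 bases upstream. A longer form of this element (TGATGNAAT, N being any base), found in 0.96% of all windows, was in no window of the 8 genes, *Inhbe* included. No window of the 8 genes held the letters of an AP-1 site (TGAGTCA, in 5.2% of all windows) or a cAMP response element (TGACGTCA, 1.79%). The paired SMAD element (GTCTAGAC, 0.21%) was in none of them either. The shorter SMAD element (CAGAC, or GTCTG on the other strand), in 49.59% of all windows, was in those of *Tgfb2*, *Tgfbr2*, *Inhbc* and *Inhbe*. It was also in the *Tgfbr1* window at chr4:47385966-47386265, and in no other window of the 8 genes. These matches are letters in a window and were not tested as binding sites. *Inhbe* (chr10:127349402-127351772) and *Inhbc* (chr10:127356328-127370544) are neighbours on the minus strand, with 4555 bases between them in the coordinates of the deposited table (GRCm38).

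Levels of different genes were compared as FPKM, the counts scaled to gene length and library total. At baseline the order of mean FPKM (± SD, n = 3) was led by *Inhbc* at 31.5 ± 10.1, whose lowest liver lay above the highest of every other member. *Inhbe* followed at 6.26 ± 2.97 FPKM, *Tgfbr2* at 4.25 ± 1.57 and *Tgfbr1* at 2.81 ± 0.298. Ranges overlapped between *Inhbe* and *Tgfbr2* and did not overlap between *Tgfbr2* and *Tgfbr1*. *Fst* (1.92 ± 1.06 FPKM) overlapped *Tgfbr1* above it and *Inhba* (1.29 ± 0.0450) beneath it. *Inhba* overlapped *Tgfb1* (1.25 ± 0.247), and every liver was higher in *Tgfb1* than any in the next gene, *Tgfb3*. *Tgfb3* (0.282 ± 0.117 FPKM) and *Inhbb* (0.210 ± 0.0256) overlapped each other, and *Tgfb2* was lowest at 0.0339 ± 0.0174 FPKM, below both. The 4 highest genes kept this order of means in vehicle- and NSC-treated remnants. In NSC-treated remnants *Inhba* (3.36 ± 1.16 FPKM) stood above *Fst* (2.53 ± 0.893), but their ranges overlapped.

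Counts were compared between groups with the quasi-likelihood test of edgeR, and a gene passed at a Benjamini-Hochberg adjusted p under 0.05 over the 15024 genes. Of the 10 genes, 1 rose in vehicle-treated remnants against baseline (*Inhbb*) and none fell, where 23.7% of all genes tested passed, 12.7% higher and 11.0% lower. In NSC-treated remnants 4 of the 10 rose against baseline (*Tgfb2*, *Tgfbr1*, *Inhba* and *Inhbb*) and none fell, where 34.7% of all genes passed, 18.2% higher and 16.5% lower. Read against these percentages, neither count sets the family apart. Between NSC- and vehicle-treated remnants 0 of the 10 passed, where 0.0399% of all genes did, and 0 passed by DESeq2 or by the edgeR exact test. An unadjusted p under 0.05 in the quasi-likelihood test was reached by 0 of the 10, beside 2929 of the 15024 genes. Over the 10 genes the middle value of the log2 fold changes from baseline was 0.52 under vehicle and 0.50 under NSC, beside 0.01 for all genes tested in each comparison. Between the treatments it was 0.03, beside 0.02 for all genes. The NSC count of 4 was 1 on leaving out NSC replicate 1, baseline replicate 1 or baseline replicate 3, was 2 on leaving out NSC replicate 2, and the vehicle count of 1 was 2 without baseline replicate 2 or vehicle replicate 3. Both comparisons with baseline use the same 3 baseline libraries, so they are not independent of each other.

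**Figure D1:**
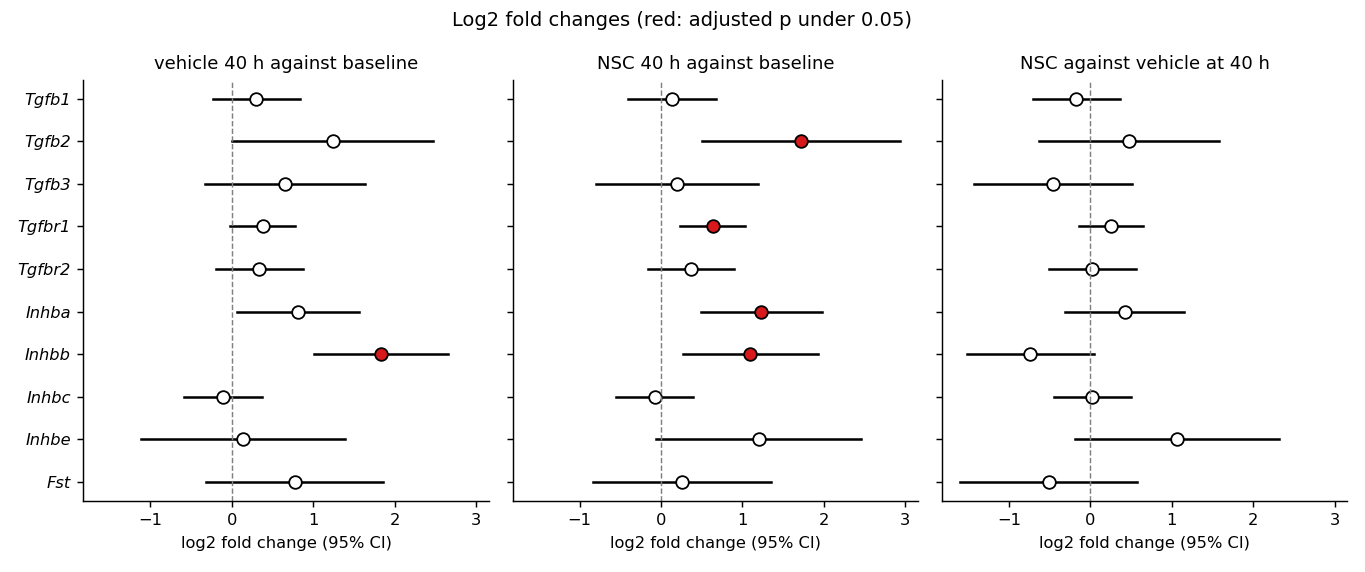
Log2 fold change (points, x axis, with 95% confidence intervals) of each of the 10 genes (y axis) in the 3 comparisons; red points passed the edgeR test at an adjusted p under 0.05. *Inhbb* is the only red point for vehicle against baseline, *Tgfb2*, *Tgfbr1*, *Inhba* and *Inhbb* are red for NSC against baseline, and no point is red between the treatments.

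*Inhbb*, which encodes the βB subunit of activin B, was the 1 gene of the family that rose in both treatments. It was at 0.979, 1.01 and 0.792 CPM (counts scaled to library size with TMM factors) in the 3 baseline livers, at 3.23, 4.74 and 1.92 CPM in vehicle-treated remnants and at 2.67, 1.32 and 1.96 CPM in NSC-treated remnants. Every remnant of either treatment was above every baseline liver, and the 2 treatments overlapped. Its log2 fold change against baseline was 1.83 ± 0.38 (SE) in vehicle-treated remnants (edgeR, adjusted p = 0.0048) and 1.10 ± 0.38 in NSC-treated remnants (adjusted p = 0.0415). The vehicle call was kept in all 18 alternatives, with adjusted p-values between 6.69e-05 and 0.0254. The NSC call was kept in 12 of 18, and was lost without any single baseline liver (highest adjusted p = 0.126), without NSC replicate 1 (0.82, adjusted p = 0.126), without NSC replicate 3 and without vehicle replicate 1. Between the treatments the difference was -0.74, with a 95% confidence interval from -1.51 to 0.04 (adjusted p = 0.279).

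*Inhba*, which encodes the βA subunit of activin A, was at 2.56, 2.72 and 2.67 CPM at baseline, a narrow range. It was at 6.93, 4.43 and 2.55 CPM in vehicle-treated remnants and at 8.31, 5.98 and 4.38 CPM in NSC-treated remnants. All 3 NSC-treated remnants were above baseline, whereas vehicle replicate 3 was at the baseline level. Against baseline the log2 fold change was 1.23 ± 0.34 with NSC (edgeR, adjusted p = 0.0157) and 0.81 ± 0.34 with vehicle (adjusted p = 0.104). Without vehicle replicate 3 the vehicle value was 1.10 and passed (adjusted p = 0.0348, within a range of 0.0348 to 0.453 over 18 alternatives). The NSC value passed in 15 of 18 alternatives, and without baseline replicate 1 or baseline replicate 3 its adjusted p was 0.0505 or 0.0504. The difference between the treatments was 0.42, with an interval from -0.31 to 1.15 (adjusted p = 0.505).

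*Inhbc* and *Inhbe*, which encode the βC and βE subunits, did not pass in any of the 3 comparisons. *Inhbc* was at 74.1, 40.6 and 78.0 CPM at baseline, 67.1, 60.9 and 51.3 CPM with vehicle, and 63.2, 53.8 and 65.4 CPM with NSC. The remnants of both treatments lay inside the baseline range, whose low end was baseline replicate 2. Its log2 fold changes were -0.10, with an interval from -0.58 to 0.37, for vehicle and -0.08, from -0.55 to 0.40, for NSC against baseline, and their sign depended on the scaling and on single livers. *Inhbe* was at 12.0, 21.2 and 8.38 CPM at baseline, 18.1, 8.06 and 19.6 CPM with vehicle, and 53.1, 16.5 and 25.8 CPM with NSC. NSC replicate 1 was by far the highest of the 9 livers, NSC replicate 3 was also above all vehicle and baseline livers, and NSC replicate 2 lay within their range. The log2 fold change of *Inhbe* was 1.20 ± 0.54 for NSC against baseline (edgeR, adjusted p = 0.127) and 1.06 ± 0.54 for NSC against vehicle (adjusted p = 0.319). Without NSC replicate 1 these values were 0.61 (adjusted p = 0.398) and 0.47 (adjusted p = 0.604). DESeq2 (adjusted p = 0.0219) and the edgeR exact test (adjusted p = 0.0347) called *Inhbe* higher with NSC than at baseline, the lowest 2 of 18 adjusted p-values that reached 0.398.

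**Figure D2:**
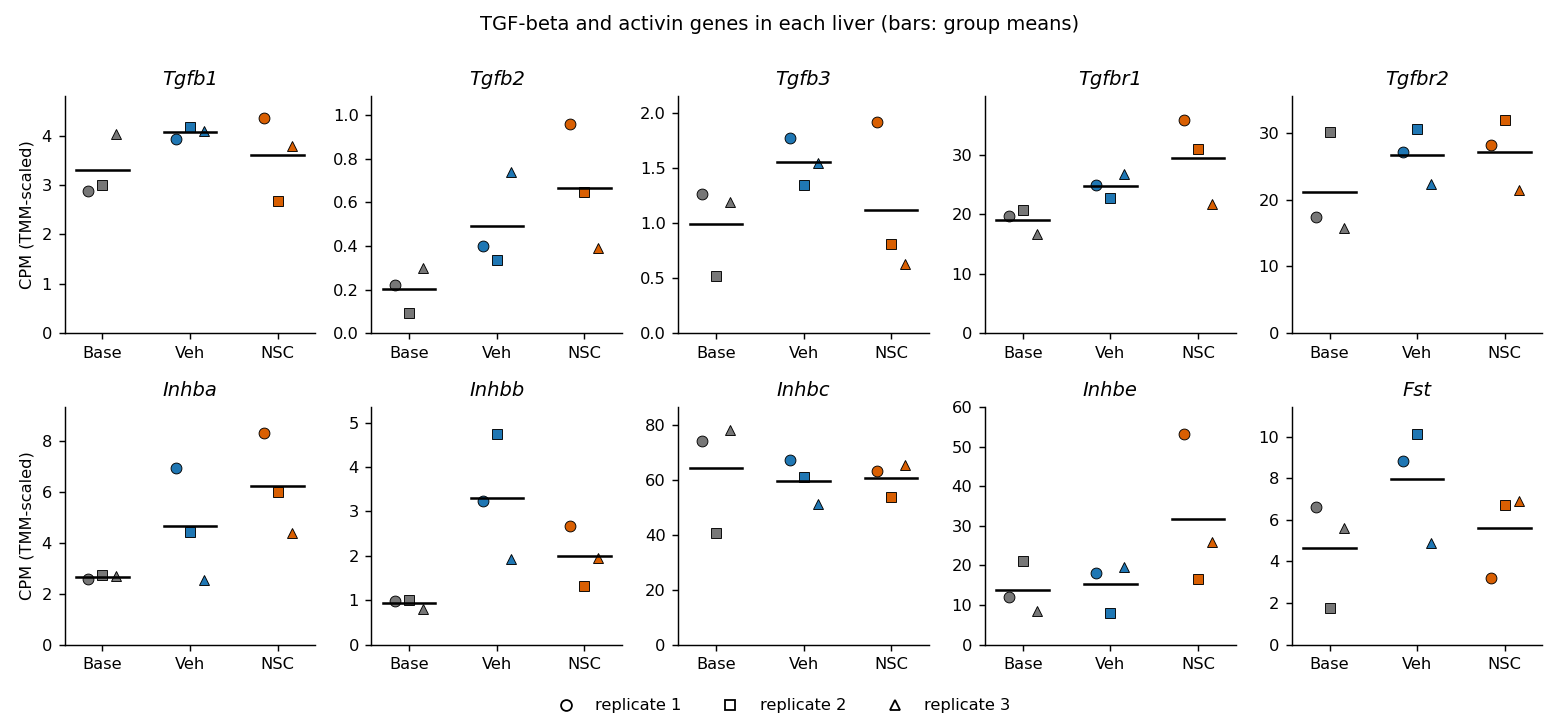
TMM-scaled CPM (y axis, linear, from 0) of each of the 10 genes in each liver, by group (x axis: baseline, vehicle 40 h and NSC 40 h); symbols are replicates 1 to 3 and bars are group means. *Inhbb* is above baseline in all 6 remnants, *Inhba* in 5 of 6, and *Inhbe* is highest in NSC replicate 1 at 53.1 CPM.

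Among the TGF-β ligands, *Tgfb1*, the isoform known best in liver fibrosis, was at 2.87, 2.99 and 4.03 CPM at baseline, 3.93, 4.17 and 4.10 CPM with vehicle and 4.35, 2.68 and 3.80 CPM with NSC. The 3 groups overlapped, and no comparison passed: 0.30 ± 0.25 for vehicle against baseline (edgeR, adjusted p = 0.406), 0.13 ± 0.25 for NSC against baseline (adjusted p = 0.710) and -0.17 between the treatments, with an interval from -0.71 to 0.37. *Tgfb2* had few reads, with 7, 3 and 9 counts at baseline, 16, 13 and 20 with vehicle and 32, 19 and 10 with NSC. Every remnant had more counts than every baseline liver, and on the TMM scale the lowest remnant was at 0.337 CPM and the highest baseline liver at 0.297 CPM. *Tgfb2* rose with NSC by a log2 fold change of 1.72 ± 0.56 (edgeR, adjusted p = 0.0319), while the vehicle value of 1.24 ± 0.57 did not pass (adjusted p = 0.132). The NSC call was lost without baseline replicate 1 or 2 or NSC replicate 1 or 2 (adjusted p from 0.0625 to 0.103), and a filter of at least 10 counts in every library removed the gene. *Tgfb3* was at 1.26, 0.519 and 1.19 CPM at baseline, 1.78, 1.35 and 1.55 CPM with vehicle and 1.92, 0.815 and 0.626 CPM with NSC. The 3 vehicle-treated remnants were above all baseline livers, and the NSC-treated remnants spanned both. Its log2 fold change was 0.66 ± 0.45 with vehicle (adjusted p = 0.318) and 0.20 ± 0.46 with NSC (adjusted p = 0.768), and the latter was -0.45 without NSC replicate 1. *Tgfb3* overlaps *Ttll5* on the opposite strand, and whether the counting used strand is not given in the sources used here.

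The type I receptor gene *Tgfbr1* was at 19.7, 20.7 and 16.7 CPM at baseline, 24.9, 22.7 and 26.7 CPM with vehicle and 35.9, 30.9 and 21.8 CPM with NSC. All 6 remnants were above the highest baseline liver, and the treatments overlapped through NSC replicate 3. *Tgfbr1* rose with NSC by 0.63 ± 0.18 (edgeR, adjusted p = 0.0183), and the vehicle value was 0.38 ± 0.18 (adjusted p = 0.151). The NSC call was lost without NSC replicate 1 (0.47, adjusted p = 0.0542), NSC replicate 2 (0.60, adjusted p = 0.0586) or baseline replicate 3 (0.55, adjusted p = 0.0813). The type II receptor gene *Tgfbr2* was at 17.4, 30.1 and 15.8 CPM at baseline, 27.2, 30.5 and 22.4 CPM with vehicle and 28.2, 32.0 and 21.4 CPM with NSC. Baseline replicate 2 stood among the remnants, and the other two baseline livers below them. The log2 fold changes of *Tgfbr2* were 0.34 ± 0.24 with vehicle (adjusted p = 0.338) and 0.37 ± 0.24 with NSC (adjusted p = 0.264). Without baseline replicate 2 both passed, at 0.69 (adjusted p = 0.0369) and 0.71 (adjusted p = 0.0230), within ranges of adjusted p up to 0.695 and 0.602. Between the treatments the *Tgfbr1* difference was 0.25, with an interval from -0.14 to 0.65, and the *Tgfbr2* difference was 0.03, from -0.50 to 0.56. In FPKM, *Tgfbr2* was at 1.07 to 1.98 times the level of *Tgfbr1* in the 9 livers.

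*Fst* was at 6.63, 1.74 and 5.61 CPM at baseline, 8.83, 10.1 and 4.87 CPM with vehicle and 3.18, 6.72 and 6.89 CPM with NSC. The 3 groups overlapped, and the lowest value was that of baseline replicate 2. Its log2 fold change was 0.77 ± 0.49 with vehicle (edgeR, adjusted p = 0.280) and 0.26 ± 0.49 with NSC (adjusted p = 0.710), and -0.51 between the treatments, with an interval from -1.60 to 0.57. Baseline replicate 2 was the lowest of the 3 specimens in *Fst*, *Inhbc*, *Tgfb2* and *Tgfb3* and the highest in *Tgfbr1*, *Tgfbr2*, *Inhba*, *Inhbb* and *Inhbe*.

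The activin subunit transcripts were set against each other within each liver as shares of their summed FPKM. *Inhbc* held 84.0%, 64.1% and 87.9% of the sum at baseline, 72.8%, 81.3% and 70.5% with vehicle and 52.0%, 71.2% and 69.3% with NSC. *Inhbe* held 12.6%, 30.9% and 8.70% at baseline, 18.1%, 9.91% and 24.8% with vehicle and 40.2%, 20.1% and 25.2% with NSC. Both shares overlapped between the 3 groups. *Inhbb* held between 0.412% and 0.737% at baseline, between 1.22% and 2.93% with vehicle and between 0.810% and 1.01% with NSC, 3 ranges that did not overlap. The level of *Inhbb* itself overlapped between the treatments, at 0.437 to 1.00 FPKM with vehicle and 0.318 to 0.692 with NSC. Its share also depends on the sum, which was 34.3 to 49.4 FPKM with vehicle and 39.3 to 68.2 with NSC, highest in NSC replicate 1. *Inhba* held between 2.88% and 4.27% at baseline and between 4.61% and 7.85% with NSC, with no overlap, whereas vehicle values ran from 3.47% to 7.47%. The sum of *Inhba* and *Inhbb* FPKM stood at 0.536, 2.16 and 0.640 times *Fst* at baseline, 1.13, 0.773 and 0.833 times with vehicle, and 3.55, 1.16 and 0.907 times with NSC. These ratios overlapped between the groups, and baseline replicate 2 and NSC replicate 1 had the highest. Among the TGF-β ligands *Tgfb1* held between 69.9% and 87.4% of the summed FPKM in the 9 livers.

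**Figure D3:**
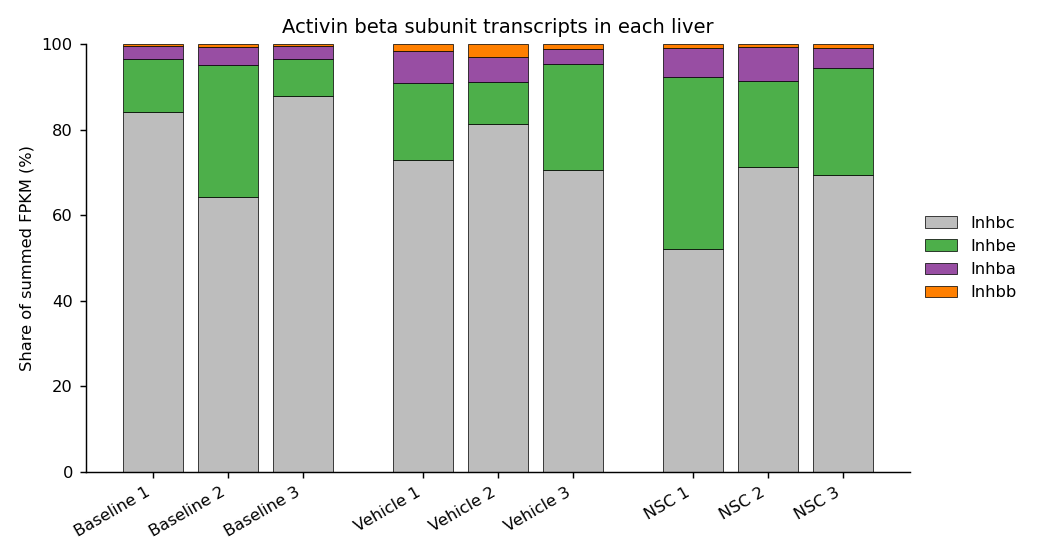
Share (y axis, % of summed FPKM) of each activin β subunit gene in each liver (x axis, by group and replicate), stacked to 100%. *Inhbc* holds most of the sum in every liver, from 52.0% in NSC replicate 1 to 87.9% in baseline replicate 3, and the *Inhbb* band is widest in the vehicle-treated remnants.

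Fold changes of the NSC group moved with base composition, and some NSC calls depended on whether this was corrected. The cause of this trend was not tested. It goes with treatment, so a correction can also remove differences of expression that follow GC content. Over 14900 genes the Spearman correlation of log2 fold change with the GC content of the longest transcript was -0.13 for vehicle against baseline, -0.41 for NSC against baseline and -0.56 for NSC against vehicle. Of the 4 genes that rose with NSC, *Tgfbr1* (41.0% GC), *Inhba* (41.4%) and *Tgfb2* (46.9%) lay below the median of 49.7% and *Inhbb* (60.9%) above it. When each library was corrected for this trend, *Inhbb* was the 1 gene that passed, at 1.60 (adjusted p = 0.00766). The other three did not, with values of 0.10 for *Tgfbr1* (adjusted p = 0.653), 0.71 for *Inhba* (adjusted p = 0.155) and 1.49 for *Tgfb2* (adjusted p = 0.0604). Over 18 alternatives, or 17 for *Tgfb2*, their adjusted p-values ran from 0.00324 to 0.653, from 0.00275 to 0.155 and from 0.0103 to 0.103. In vehicle-treated remnants the corrected value of *Inhbb* was 1.87 (adjusted p = 0.00351), and between the treatments the corrected difference was -0.27 in place of -0.74. The correction turned the sign of *Tgfbr1* between the treatments to -0.06 and that of *Fst* for NSC against baseline to -0.11. It also moved the median of all genes for NSC against baseline from 0.01 to -0.07, so the corrected *Fst* value lay near that median. Between the treatments the corrected median of all genes was 0.03.

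**Figure D4:**
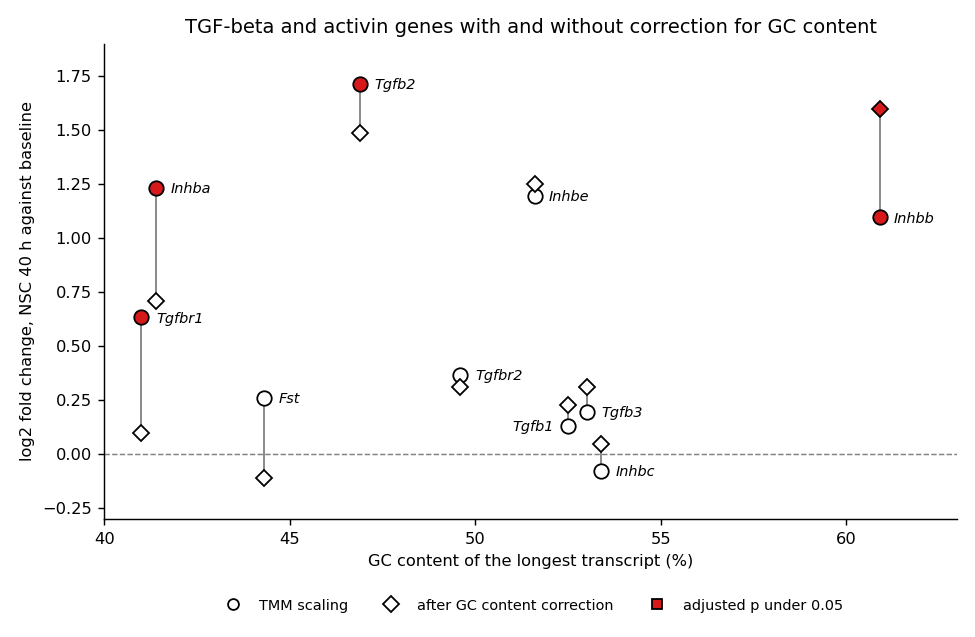
Log2 fold change for NSC 40 h against baseline (y axis) of each of the 10 genes by the GC content of its longest transcript (x axis, %), before (circles) and after (diamonds) correction of each library for GC content; red marks an adjusted p under 0.05. *Tgfbr1* and *Inhba*, the genes with the least G and C, moved down by the correction, *Inhbb*, with the most, moved up and is the only red diamond.

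Of the 48 further pathway genes tested, 14 rose and 2 fell in vehicle-treated remnants (median log2 fold change 0.29), and 6 rose and 3 fell in NSC-treated remnants (median 0.14). Of all genes tested, 12.7% rose and 11.0% fell with vehicle, and 18.2% rose and 16.5% fell with NSC. The direction of the NSC calls turned on NSC replicate 1, without which 3 rose and 6 fell, where 18.1% of all genes rose and 16.2% fell. After GC correction 5 rose and 5 fell with NSC, where 12.7% and 17.7% of all genes did. With vehicle, GC correction gave 12 that rose and 6 that fell, beside 11.2% and 16.7% of all genes. The vehicle count of 16 was 10 without baseline replicate 1, without baseline replicate 3 or without vehicle replicate 2. In those fits 8.15%, 8.19% and 10.3% of all genes rose and 7.38%, 6.97% and 8.62% fell, so calls over all genes were fewer too. Of the vehicle calls, 9 of 16 held in every fit with 1 library left out (*Ltbp4*, *Emilin1*, *Fbn1*, *Smurf1*, *Tgfbi*, *Col1a1*, *Col1a2*, *Timp1* and *Lox*), and of the NSC calls 6 of 9 did (*Ltbp4*, *Itgav*, *Furin*, *Smurf1*, *Timp1* and *Lox*). Of the 12 target genes of TGF-β tested, 8 were higher and none lower with vehicle (median 1.71), and 2 were higher with NSC (median 1.01). The collagen gene *Col1a2* was at 6.86, 11.1 and 8.65 CPM at baseline, 63.4, 59.1 and 29.9 CPM with vehicle and 22.7, 10.4 and 11.1 CPM with NSC. The vehicle-treated remnants were above all other livers, and 2 of the 3 NSC-treated remnants were within the baseline range. *Col1a2* rose with vehicle by 2.52 ± 0.39 on the log2 scale (edgeR, adjusted p = 0.00208), the NSC value was 0.74 (adjusted p = 0.156), and the difference between the treatments was -1.78 (adjusted p = 0.0850). A further collagen gene, *Col1a1* (3.59, adjusted p = 0.0110), the smooth muscle actin gene *Acta2* (2.36, adjusted p = 0.0377), the transcription factor gene *Snai1* (1.37, adjusted p = 0.0183), the matrix protein gene *Tgfbi* (0.73, adjusted p = 0.00726) and the cell cycle inhibitor gene *Cdkn1a* (2.00, adjusted p = 0.0295) also rose with vehicle. *Timp1*, a metalloproteinase inhibitor, and *Lox*, which cross-links collagen, rose in both treatments from a baseline of very few counts. For *Timp1* the log2 fold change was 5.63 with vehicle (adjusted p = 0.00475) and 5.23 with NSC (adjusted p = 0.0044). For *Lox* it was 4.38 with vehicle (adjusted p = 0.00355) and 3.42 with NSC (adjusted p = 0.00839). In NSC replicates 1, 2 and 3 *Timp1* was at 11.5, 1.77 and 1.33 CPM and *Lox* at 3.63, 0.815 and 0.352 CPM, so replicate 1 set the size of both NSC values. Without it they were 3.58 for *Timp1* (adjusted p = 9.73e-06) and 1.97 for *Lox* (adjusted p = 0.00782).

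Of the 12 latency and activation genes tested, 5 rose and 1 fell with vehicle, and 2 rose and 2 fell with NSC. *Ltbp4*, which encodes a latent TGF-β binding protein, was at 25.7, 33.3 and 41.0 CPM at baseline, 13.3, 14.8 and 9.41 CPM with vehicle and 7.77, 6.72 and 7.24 CPM with NSC, and the 3 groups did not overlap. It fell by 1.41 on the log2 scale with vehicle (edgeR, adjusted p = 0.000756) and by 2.20 with NSC (adjusted p = 4.69e-05). *Fbn1*, the microfibril protein that holds latent complexes, rose by 2.24 with vehicle (adjusted p = 0.0037) and by 1.17 with NSC (adjusted p = 0.0491). With NSC it was at 9.06, 4.45 and 2.43 CPM, beside 2.11 to 2.59 CPM at baseline, so 1 NSC-treated remnant was within the baseline range, and without NSC replicate 1 the value was 0.54 (adjusted p = 0.194). The integrin gene *Itgav*, whose product frees TGF-β from its latent form, rose by 0.59 (adjusted p = 0.0200) and 0.70 (adjusted p = 0.00635). *Thbs1* (2.88, adjusted p = 0.0215), *Ltbp1* (1.00, adjusted p = 0.0228) and *Emilin1* (1.19, adjusted p = 0.00475) rose with vehicle, and *Furin*, which encodes the protease that cleaves TGF-β precursors, fell by 1.00 on the log2 scale with NSC (adjusted p = 0.00308). Of the 13 SMAD proteins and regulators, the ubiquitin ligase gene *Smurf1* fell in both treatments, by 0.75 (adjusted p = 0.00597) and 0.98 (adjusted p = 0.000965), and *Smurf2* rose with NSC (0.48, adjusted p = 0.0371). The TGF-β-binding proteoglycan gene *Dcn* rose with NSC (0.59, adjusted p = 0.0331), and after GC correction its value was -0.09, near the corrected median of all genes (-0.07). Without NSC replicate 1 neither *Dcn* (0.35, adjusted p = 0.116) nor *Smurf2* (0.28, adjusted p = 0.132) passed. *Itgav* and *Smurf2* did not pass with NSC after that correction either (adjusted p = 0.163 and 0.236). None of the 7 accessory and activin receptor genes passed in any of the 3 comparisons.

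**Figure D5:**
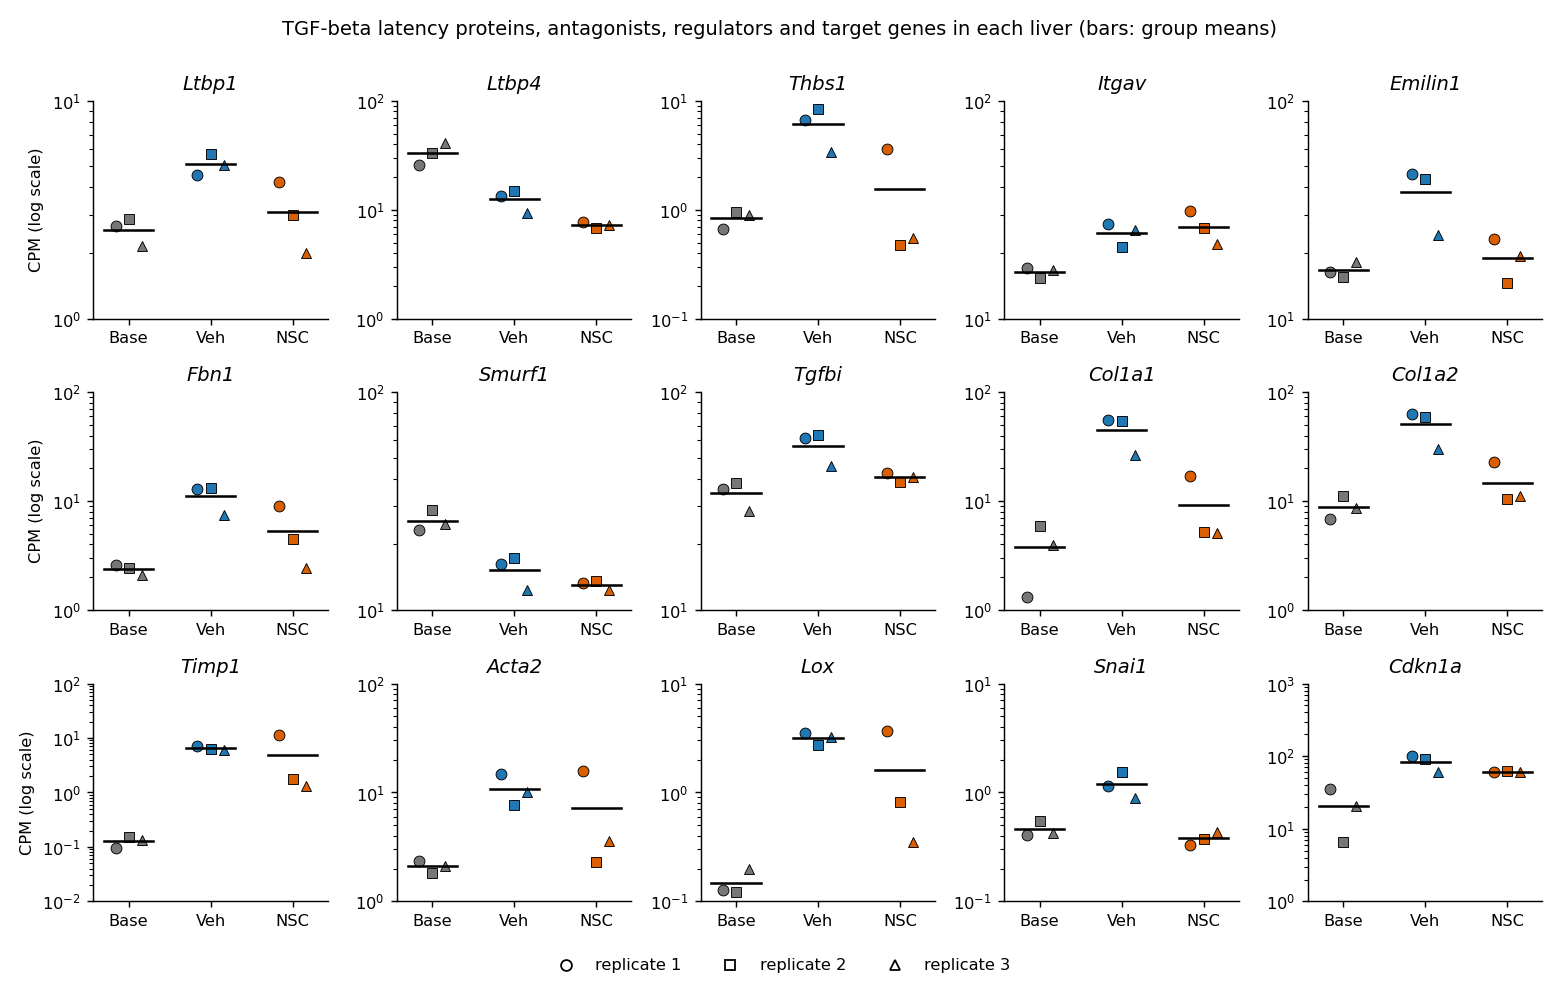
TMM-scaled CPM (y axis, log scale) in each liver (x axis by group; symbols are replicates 1 to 3, bars group means) of the 15 pathway genes with the smallest adjusted p for vehicle against baseline. *Col1a2* reaches 29.9 to 63.4 CPM in vehicle-treated remnants and 10.4 to 22.7 CPM in NSC-treated ones, *Ltbp4* and *Smurf1* are lower in every remnant than at baseline, and in several panels NSC replicate 1 lies above the other NSC-treated remnants.

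Between NSC- and vehicle-treated remnants 0 of the 48 pathway genes passed (edgeR quasi-likelihood test). By the same test 16 of the 48 had an unadjusted p under 0.05, beside 2929 of all 15024 genes. With NSC 31 of the 48 were lower, beside 7291 of all 15024 genes (median -0.26, beside 0.02 for all genes). By DESeq2 7 passed and by the edgeR exact test 6, all lower with NSC, where 2.86% and 2.12% of all genes passed in that direction. Of the 12 latency and activation genes 10 were lower (median -0.83), and of the 12 target genes 10 (median -0.54). The count turned on NSC replicate 1: without it, 16 pathway genes passed, all lower with NSC, where 2.76% of all genes passed in that direction, and without vehicle replicate 3 2 passed, where 0.626% of all genes did. The *Col1a1*, *Col1a2*, *Timp1*, *Lox* and *Acta2* levels of NSC replicate 1 were each the highest of the 3 NSC-treated remnants (for *Acta2* 15.6 CPM, beside 2.31 and 3.56). After GC correction 0 of all 15024 genes passed, these 48 included. None of the 10 ligand, receptor and follistatin genes passed between the treatments under any of these settings.

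Markers of the cell types that could bring these transcripts also differed between the groups. In whole liver, fewer cells of a type and less RNA per cell cannot be told apart. The summed CPM of 8 hepatocyte markers, most of it *Alb*, lay between 100530 and 142350 in the 9 livers. In each treatment *Cyp2e1*, *Tat* and *Serpina1c* fell, *Fgb* rose, and the other 4 did not pass. The sum over 8 stellate cell and myofibroblast markers ran from 119 to 125 CPM at baseline, from 239 to 337 with vehicle, and was 274, 136 and 145 with NSC, and 5 of the 8 rose with vehicle and 3 with NSC. The sum over 8 Kupffer cell and macrophage markers ran from 152 to 223 CPM at baseline, from 149 to 272 with vehicle and from 295 to 489 with NSC, and 2 of the 8 rose with vehicle and 5 with NSC. The sum over 8 sinusoidal endothelial markers ran from 229 to 237 CPM at baseline, 141 to 217 with vehicle and 170 to 290 with NSC. Of these 8, 3 fell with vehicle and 1 with NSC. For 3 mesothelial markers, which mark the liver surface, the sum ran from 1.31 to 3.10 CPM at baseline and 16.1 to 17.9 with vehicle. With NSC it was 13.8, 9.17 and 0.274 CPM, and 1 of the 3 rose with vehicle and 0 with NSC. Beside these counts, 12.7% of all genes tested rose and 11.0% fell with vehicle, and 18.2% rose and 16.5% fell with NSC. No marker of these lists was at 0 in all 3 livers of a group. NSC replicate 1, the highest of the NSC group in *Tgfb1*, *Tgfb2*, *Tgfb3*, *Tgfbr1*, *Inhba*, *Inhbb* and *Inhbe*, was also the highest in the stellate, Kupffer and endothelial sums. The part of these cell types in the levels of the 10 genes was not tested.

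Genes with the most similar pattern to each member were found by Pearson correlation of log2 CPM over the 9 livers, which share groups, depth and base composition, and are given as a description. *Inhbb* was followed most closely by *Hdc* (r = 0.968), *Fxyd5* (0.961) and *Gdf10* (0.959). *Tgfbr1* was followed by *Herc6* (r = 0.984), *Ercc6l2* (0.974) and *Tnks2* (0.970), and 146 genes correlated with it above 0.9. *Tgfb2* had *Prmt3* (r = 0.968), *Zfyve16* (0.964) and *Snap23* (0.963) nearest to it, and *Inhba* had *5430435G22Rik* (0.943), *Cd180* (0.940) and *Evl* (0.936). *Hus1*, *Pigp* and *Zfp65* came nearest to *Inhbe* (r = 0.954, 0.948 and 0.938), and *Ap2a2*, *Micalcl* and *Phospho1* to *Inhbc* (0.934, 0.929 and 0.925). For *Tgfb1* the nearest were *Thap1*, *Sec14l1* and *Camk2n2* (r = 0.923, 0.909 and 0.864), for *Tgfb3* *Mgat4a*, *Rnf144a* and *AU021092* (0.958, 0.933 and 0.926), for *Tgfbr2* *Slc15a2*, *Man2a1* and *Stk35* (0.932, 0.930 and 0.920), and for *Fst* *Bok*, *Crip2* and *Pxdc1* (0.932, 0.898 and 0.894). No member was among the 3 nearest genes of another member. Among the 10 genes themselves the highest correlation over the 9 livers was between *Tgfb2* and *Tgfbr1* (r = 0.78), and *Inhbc* and *Tgfbr2* had the lowest (r = -0.65).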

How the data were processed

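RNA-Seq libraries of polyadenylated, strand-marked RNA were made from 9 mouse liver samples. Paired-end reads were aligned by the authors with STAR 2.6.1 in MAP-RSeq. They counted them on genes with featureCounts (Subread 1.5.1) and deposited raw counts per gene and library, without pooling replicates. The deposited FPKM are these counts scaled to gene length and library total, as computed by the authors, and recomputed values for the 10 genes differed by at most 0.000509 of their size. The study's methods and processing notes name a human reference, whereas identifiers and coordinates are mouse ones (GRCm38).

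The 10 genes, the pathway list and the marker lists were chosen with earlier results of these data known. Counts were analysed with edgeR 4.0.16 in R 4.3.3: TMM factors, filterByExpr, 1 robust quasi-likelihood fit of all 9 libraries with group as the only term, and Benjamini-Hochberg adjustment over 15024 genes. The SE is the absolute log2 fold change divided by the square root of F. Groups follow the sample records. All 10 genes are named, with the pathway genes that passed (at most 15 per comparison, by adjusted p) and, by correlation among genes of at least 1 CPM, the 3 nearest genes; *Acta2* was added after its values were seen. One gene of the pathway list is not reported here and is in none of its counts. Alternatives were DESeq2 1.42.0, the edgeR exact test, RLE factors, library size only, other count filters, only the 2 groups compared, a replicate block, a loess correction (span 0.5) on GC content known for 99.2% of genes, other thresholds, and each library left out. The fitting procedure was tested on simulated data. Python 3.11.15 (pandas 2.3.3, matplotlib 3.10.9) served for levels, promoters and figures.

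Libraries held 23997363 to 42887589 counts, and a floor of 3 counts corresponds to 0.0751 to 0.117 CPM. With 3 livers per group, p-values rest on the spread between these livers.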

Additional observations from a re-analysis of the deposited data

How the results depend on the processing

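The precision is limited by 3 livers per group and by the few counts of *Tgfb2*, and some NSC calls depended on the correction for GC content. Over the 9 fits that left out 1 library, 1 to 2 of the 10 genes passed for vehicle against baseline, 1 to 4 for NSC against baseline and 0 to 0 between the treatments, and 10 to 18, 6 to 10 and 0 to 16 pathway genes passed. In these fits 8.15% to 16.0% of all genes rose and 6.97% to 14.1% fell with vehicle. With NSC 12.4% to 18.2% of all genes rose and 11.7% to 16.5% fell. Between the treatments 0% to 3.86% of all genes were called higher and 0% to 2.76% lower with NSC. For NSC against baseline the count of 4 was 1 after GC correction, 1 with an absolute log2 fold change over 1.5 and 0 at an adjusted p under 0.01. Pathway genes for vehicle against baseline numbered 8 with the fold threshold and 8 at 0.01, and for NSC against baseline 3 with the fold threshold and 14 at 0.1. Between the treatments they numbered 7 by DESeq2, 6 by the exact test, 3 when all genes with at least 1 count were tested and 4 at an adjusted p under 0.1.

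Signs turned for *Inhbc* for NSC against baseline at 0.0644 when only library size was used and at 0.0496 after correction for GC content, for *Fst* in that comparison after GC correction (-0.11) and for *Tgfbr1* between the treatments after GC correction (-0.0591). Library size only moved the median of all genes for NSC against baseline from 0.01 to 0.15, so relative to that median *Inhbc* stayed lower. It also moved the genes called for NSC against baseline from 2728 higher and 2479 lower to 3399 and 1795. GC correction moved them to 1908 and 2664, and those for vehicle from 1914 higher and 1650 lower to 1680 and 2516. With that correction the median of all genes was -0.0674 for NSC against baseline and -0.0915 for vehicle against baseline. With 1 library left out, signs turned in 3 comparisons for *Inhbc*, with values from -0.347 to 0.0645 (vehicle against baseline), from -0.322 to 0.0897 (NSC against baseline) and from -0.073 to 0.117 (NSC against vehicle). They also turned for *Inhbe* in vehicle against baseline (-0.12 to 0.58), for *Tgfb3* (-0.45 to 0.47), *Fst* (-0.13 to 0.61) and *Tgfb1* (-0.0278 to 0.306) in NSC against baseline, and for *Tgfb1* (-0.330 to 0.0039) and *Tgfbr2* (-0.11 to 0.17) between the treatments. The cause was not tested. None of these values passed. With 1 library left out the remaining values of the 10 genes kept their direction.

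The labels give all groups the numbers 1 to 3. Deviations of same-numbered libraries from their group means correlated between -0.05 and 0.13, and those of differently numbered libraries between -0.115 and 0.066. The numbers were not taken as pairs, but correlations this low cannot decide whether same-numbered libraries belong together. With the replicate block the members that passed numbered 1, 4 and 0, as without it, and the block changed the call of no member. Most libraries correlated best with their own number in another group, and the exception was vehicle replicate 3. It correlated at 0.036 with baseline replicate 2, its highest value, at -0.048 with baseline replicate 3 and at 0.019 with NSC replicate 3.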

Other observations

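Marker lists of other cell types moved with the groups as follows. The summed CPM of 6 neutrophil markers ran from 2.11 to 7.14 at baseline, from 8.01 to 15.8 in vehicle-treated and from 10.9 to 17.5 in NSC-treated remnants. That of 6 cholangiocyte markers ran from 14.7 to 24.0 at baseline, from 24.3 to 30.7 with vehicle and from 17.8 to 21.4 with NSC. Lymphocyte markers (6 genes) summed to 1.89 to 7.13 CPM at baseline, 0.554 to 1.94 with vehicle and 1.37 to 1.86 with NSC. Platelet markers (4 genes) stayed between 3.62 and 6.53 CPM in the 9 livers, and erythroid markers (4 genes) ran from 159 to 218 CPM at baseline and from 56.2 to 126 in the remnants.

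Within groups, as deviations from the group mean of log2 CPM, the highest Pearson correlations over the 9 livers were those of *Tgfb2* with *Tgfb3* (0.80) and *Inhbc* with *Fst* (0.77), and the lowest those of *Inhbe* with *Fst* (-0.80) and *Tgfbr2* with *Inhbc* (-0.74). Baseline replicate 2, with low *Fst* and high *Inhbe*, also had the highest *Smad7* of the baseline livers, 8.52 CPM beside 2.53 and 2.51, where the NSC-treated remnants were at 4.20, 5.16 and 8.73 CPM. *Smad7*, an inhibitory SMAD, was singled out after its values were seen, and without baseline replicate 2 it passed for NSC against baseline (1.25, adjusted p = 0.0137, in place of 0.41, adjusted p = 0.518; edgeR).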
